A study of Mus musculus with 7 samples.

Results

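A set of 10 genes of hepatic insulin signalling were examined in hepatocytes cultured from WT and WDR6-WKO mice: the insulin receptor *Insr*, its adaptors *Irs1* and *Irs2*, the PI3K subunits *Pik3r1* and *Pik3ca*, the kinases *Akt1* and *Akt2*, the transcription factors *Foxo1* and *Foxo3*, and *Pdk4*. The members were picked by gene symbol as parts of the pathway, and the rule uses no measured value. They were, however, chosen with earlier results of these data known. All 10 of them were found among the 14819 rows of the read-count table, and all 10 passed the filter on low counts. The study asked what loss of WDR6, a WD-repeat protein, does to the transcriptome of hepatocytes, the parenchymal cells of the liver. WDR6-WKO mice lacked exon 2 of *Wdr6* in the whole body, made with CRISPR–Cas9, so every cell type of these animals carried the deletion, and WT mice carried the intact gene. Hepatocytes of male mice were obtained by collagenase perfusion, grown in William's E medium with fetal bovine serum, kept overnight and left without treatment. There were 4 WT and 3 WDR6-WKO libraries. The age of these mice, whether WT animals were littermates and whether a library came from 1 animal were not given in the sources used here. No addition of insulin to the medium was stated.

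Insulin binds its receptor, a tyrosine kinase, which phosphorylates IRS proteins. These recruit PI3K, whose lipid product brings AKT to the membrane to be activated, and AKT in turn phosphorylates FOXO factors and keeps them out of the nucleus. In the liver, FOXO1 drives genes of fasting such as *Igfbp1*, *Irs2* and those of gluconeogenesis, and insulin silences them, while insulin induces genes of glucose use and lipogenesis such as *Srebf1*. *Pdk4* encodes a kinase that inhibits pyruvate dehydrogenase, rises in fasting and is counted among the FOXO targets. It is not PDK1 of the AKT pathway, the enzyme that activates AKT, which is encoded by *Pdpk1*.

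*Irs2* and *Foxo1* were lower in WDR6-WKO hepatocytes than in WT, by 19.1% and 16.4% in fitted level, and none of the 10 was higher. The 2 calls were not equally firm. That of *Irs2* held in 14 of 14 alternative fits. That of *Foxo1* was close to the threshold (edgeR adjusted p = 0.0419), with overlapping ranges, and held in 8 of 14. It was lost without WDR6-WKO replicate 1 or 2 and without WT replicate 2, 3 or 4. The other 8 members did not pass the test, and their log2 fold changes lay between -0.18 and 0.07. Over all genes tested, 6.18% were lower and 6.65% higher. WDR6-WKO replicate 3 stood apart from the other libraries of its genotype, and without it 5 members were lower and 1 higher, where the shares of all genes called also rose, to 14.1% lower and 14.5% higher. Every member is therefore given with and without it.

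The sequence just before the start of *Irs2* is shown with those of its paralog *Irs1* and of *Igfbp1*, because *Irs2* had the smallest adjusted p among the members and *Igfbp1* is a classical liver gene with an insulin response sequence. Sequences are RefSeq promoter windows of GRCm38.p6, read 5′ to 3′ on the gene's strand. Those of *Irs2* and *Irs1* end at the base before the RefSeq start. That of *Igfbp1* is cut to 245 bases, leaving out the last 5, which lie in a GENCODE exon of the gene. Capitals mark the core of the insulin response sequence, CAAAACA or its reverse complement TGTTTTG, and the E-box CACGTG, a palindrome bound by USF and TFE factors. *Irs2* is from chr8:11008930-11009179 on the minus strand, *Irs1* from chr1:82291440-82291689 on the minus strand and *Igfbp1* from chr11:7197537-7197781 on the plus strand. GENCODE, from which the gene coordinates given below come, starts *Irs2* further downstream, at 11008458, so the positions of motifs hold for the RefSeq start.
Irs2: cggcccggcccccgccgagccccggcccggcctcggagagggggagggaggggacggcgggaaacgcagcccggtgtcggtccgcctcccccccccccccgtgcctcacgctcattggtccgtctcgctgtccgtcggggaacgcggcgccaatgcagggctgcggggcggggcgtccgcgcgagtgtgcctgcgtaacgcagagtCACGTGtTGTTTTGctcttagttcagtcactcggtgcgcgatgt
Irs1: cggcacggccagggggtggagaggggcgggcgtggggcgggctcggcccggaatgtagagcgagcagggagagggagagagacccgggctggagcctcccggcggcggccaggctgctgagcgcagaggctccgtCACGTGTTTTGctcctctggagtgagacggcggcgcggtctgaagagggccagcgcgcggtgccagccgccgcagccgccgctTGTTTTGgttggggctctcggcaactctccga
Igfbp1: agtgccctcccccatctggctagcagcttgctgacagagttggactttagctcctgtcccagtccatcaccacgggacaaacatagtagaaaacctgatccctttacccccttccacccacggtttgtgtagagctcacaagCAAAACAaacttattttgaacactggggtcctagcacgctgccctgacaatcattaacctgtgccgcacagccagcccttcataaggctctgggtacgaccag

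Counted from -1 at the base before the RefSeq start, the *Irs2* window held CACGTG from -44 to -39 and TGTTTTG from -37 to -31. The *Irs1* window held CACGTG from -115 to -110, which overlaps a TGTTTTG from -111 to -105, and another TGTTTTG from -32 to -26. In *Igfbp1* a CAAAACA stood from -108 to -102, where the 5 bases left out of the printed sequence are counted. Windows were given for 9 of the 10 members, and *Irs1* and *Irs2* were the members with either motif. The insulin response core was found in 4.92% and the E-box in 9.73% of the 10569 genes that were tested for expression and had a window, on either strand. The FOXO consensus GTAAACA was found in 2.89% of these genes and, among the members, in *Akt1*. The window of *Foxo1*, the other member that passed the test, held none of these motifs and is not shown. The matches describe the letters of the windows and were not tested for binding.

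The libraries held 17816913 to 23668940 reads counted on genes. Levels are TMM-scaled CPM, a gene's counts relative to a fixed library size, and p-values are those of the quasi-likelihood test in edgeR, adjusted by Benjamini-Hochberg over 14779 genes, with an adjusted p under 0.05 as the threshold. Fold changes are WDR6-WKO against WT. *Wdr6* stood at 44.0 ± 4.03 CPM in WT (s.d., n = 4) and at 2.38 ± 0.179 in WDR6-WKO hepatocytes (s.d., n = 3), with no overlap between the genotypes. WDR6-WKO replicate 3 differed from replicates 1 and 2 by a chi-square of 14.4 and 16.2 per gene, against 5.17 between replicates 1 and 2 and 3.84 to 8.34 between WT libraries. The hepatocyte marker list had all 10 genes counted, at a summed 16110 to 19100 CPM in WT and 14450 to 16580 in WDR6-WKO libraries, and 4 of the 10, *Apoa1*, *Hnf4a*, *Cps1* and *Fgb*, were lower. Of 13 markers of Kupffer cells, the liver's macrophages, 4 were higher, *Lyz2*, *C1qb*, *C1qc* and *Fcgr1*, and none lower. Their sums were 864 to 944 CPM in WT and 999.7 to 1199 in WDR6-WKO for all 13. *Clec4f*, *Vsig4* and *Cd5l* gave no call. *Timd4* lay in the other direction at log2 -0.485, also without a call (edgeR adjusted p = 0.0880). Endothelial markers gave no call among 8 (279 to 321 CPM against 262 to 314), stellate cell markers 2 higher of 8 (460 to 511 against 505 to 536), and cholangiocyte markers 2 higher of 5 (3068 to 3360 against 3713 to 4306). The cholangiocyte sum was almost all *Spp1*, at 2980 ± 178 CPM in WT and 3693 ± 338 in WDR6-WKO, while *Krt19* was at 148 ± 15.3 and 143 ± 18.5 and gave no call. Over all genes tested, 6.18% were lower and 6.65% higher. Of 7 lymphocyte markers, *Ptprc* alone was in the table, at 12.9 to 16.0 CPM. The part of these cells in the results below was not tested, and in such bulk samples fewer cells of a type and less RNA per cell cannot be told apart.

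The receptor *Insr* lies on the minus strand at chr8:3122061-3279617 (GRCm38) with 23 exon blocks. It was counted at 198, 197, 201 and 224 CPM in WT replicates 1 to 4 and at 178, 173 and 203 in WDR6-WKO replicates 1 to 3. The first and second WDR6-WKO libraries lay below every WT library, while replicate 3 stood above 3 of the 4. The log2 fold change was -0.15 (standard error 0.06, edgeR adjusted p = 0.120), with a 95% interval from -0.29 to -0.02 before adjustment, so the receptor did not pass the test. Without WDR6-WKO replicate 3 it was -0.23 (edgeR adjusted p = 0.000491).

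Of the adaptors, *Irs2* (minus strand, chr8:10984681-11008458) is the one that in liver rises in fasting and falls with insulin. Its levels were 43.6, 43.2, 44.1 and 40.3 CPM in the WT libraries and 36.8, 32.3 and 34.7 in the WDR6-WKO libraries. Each WDR6-WKO library was below every WT library, and replicate 3 lay between the other two. The mean was 42.8 ± 1.72 CPM in WT (s.d., n = 4) and 34.6 ± 2.23 in WDR6-WKO (s.d., n = 3), which is 80.9% of the WT level. The log2 fold change of *Irs2* was -0.31 (standard error 0.07, 95% interval -0.45 to -0.16, edgeR adjusted p = 0.00691). Without WDR6-WKO replicate 3 it was again -0.31 (edgeR adjusted p = 0.000714). *Irs2* passed the threshold in 14 of 14 alternatives, with log2 fold changes from -0.36 to -0.26. These 14 leave out the study's thresholds, which no member met. Its exons overlap 162 bases of 9530052E02Rik on the opposite strand, a gene with no row of its own in the table, and the strand setting of the counts was not given in the sources used here.

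*Irs1* (minus strand, chr1:82233101-82291416), the paralog best known from muscle, was the lowest of the members. It had 122, 77, 128 and 125 reads in WT and 142, 106 and 82 in WDR6-WKO libraries, or 6.15, 4.03, 6.81 and 6.28 against 5.90, 5.01 and 4.58 CPM. The genotypes overlapped, and WT replicate 2 was the lowest library of all. The log2 fold change was -0.17 (standard error 0.17, edgeR adjusted p = 0.578). Its 95% interval, from -0.53 to 0.20, holds both the fold change of *Irs2* and no change. Single libraries moved the value, to -0.30 without WT replicate 2, -0.28 without WDR6-WKO replicate 1, -0.09 without WDR6-WKO replicate 3 and -0.08 without WT replicate 3, and none of these fits passed the test (edgeR adjusted p from 0.224 to 0.832). *Irs1* also shares 2822 exon bases with Gm9747 on the opposite strand.

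PI3K pairs a regulatory with a catalytic subunit. *Pik3r1* (minus strand, chr13:101680563-101768217) encodes p85α, the regulatory subunit that docks on IRS proteins. It was counted at 138, 140, 145 and 161 CPM in WT and at 134, 117 and 133 in WDR6-WKO libraries, with replicates 1 and 3 just under the lowest WT value and replicate 2 further below it. Its log2 fold change of -0.18 (standard error 0.06, 95% interval -0.32 to -0.05) missed the threshold (edgeR adjusted p = 0.0724) and passed it without replicate 3 (-0.21, edgeR adjusted p = 0.0217). *Pik3ca* (plus strand, chr3:32397671-32468486), the catalytic subunit p110α, gave 113, 127, 124 and 128 CPM in WT and 109, 112 and 125 in WDR6-WKO libraries. Its ranges overlapped, and the log2 fold change was -0.09 (standard error 0.06, edgeR adjusted p = 0.349) and of -0.15 without replicate 3 (edgeR adjusted p = 0.0219).

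Neither AKT kinase passed the test with all libraries. *Akt1* (minus strand, chr12:112653821-112674884), the isoform found in most tissues, was counted at 347, 330, 321 and 320 CPM in WT and at 349, 372 and 320 in WDR6-WKO libraries. Replicates 1 and 2 were above every WT library and replicate 3 was at the lower end of WT, and the log2 fold change was 0.07 (standard error 0.05, 95% interval -0.04 to 0.19, edgeR adjusted p = 0.403). Without replicate 3 *Akt1* passed the test in the higher direction, at 0.13 (edgeR adjusted p = 0.0203). *Akt2* (plus strand, chr7:27591552-27640826), the isoform tied to metabolic insulin action, was close to level at 122, 119, 122 and 119 CPM in WT and 123, 129 and 111 in WDR6-WKO libraries. Its mean was 121 ± 1.73 (s.d., n = 4) against 121 ± 8.97 (s.d., n = 3). The log2 fold change was 0.01, with an interval from -0.11 to 0.12 (edgeR adjusted p = 0.964), and 0.06 without replicate 3 (edgeR adjusted p = 0.357). The sign of this value is not settled: in 4 of the alternatives it fell just below 0. Of the 50-base stretches of *Akt2*, 15.95% are shared with the pseudogene *Akt2-ps*, which was counted apart at 58 to 104 reads per library, so reads may have been split between them.

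*Foxo1* (plus strand, chr3:52268336-52353221) encodes the main FOXO factor by which insulin acts on liver genes. It was counted at 60.7, 67.2, 71.9 and 63.5 CPM in WT and at 55.1, 48.6 and 61.3 in WDR6-WKO libraries. The groups touched, because WDR6-WKO replicate 3 stood above WT replicate 1. The mean was 65.8 ± 4.87 CPM in WT (s.d., n = 4) and 55.0 ± 6.35 in WDR6-WKO (s.d., n = 3). The fitted log2 fold change was -0.26 (standard error 0.08, 95% interval -0.43 to -0.09, edgeR adjusted p = 0.0419). This call was close to the threshold and held in 8 of 14 alternatives, with adjusted p from 0.000312 without WDR6-WKO replicate 3 (log2 fold change -0.34) to 0.200 without WDR6-WKO replicate 2. It was also lost without WDR6-WKO replicate 1 (edgeR adjusted p = 0.113) and without WT replicate 2 (0.108), 3 (0.138) or 4 (0.0746). A gene on the opposite strand, Gm20402, overlaps 589 of its exon bases.

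*Foxo3* (minus strand, chr10:42181841-42276755), a FOXO factor with overlapping targets, was at 69.4, 64.8, 61.5 and 72.9 CPM in WT and at 65.4, 57.6 and 63.2 in WDR6-WKO libraries. Its ranges overlapped, and the log2 fold change of -0.11 (standard error 0.07, 95% interval -0.26 to 0.03) did not pass the test with (edgeR adjusted p = 0.303) or without replicate 3 (edgeR adjusted p = 0.153). *Pdk4* (minus strand, chr6:5483351-5496309) was counted at 31.4, 36.6, 32.1 and 30.7 CPM in WT and at 32.5, 30.5 and 38.0 in WDR6-WKO libraries. The genotypes overlapped fully, and the log2 fold change was 0.04 (standard error 0.09, 95% interval -0.14 to 0.22, edgeR adjusted p = 0.815) and -0.06 without replicate 3 (edgeR adjusted p = 0.628).

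**Figure D1:**
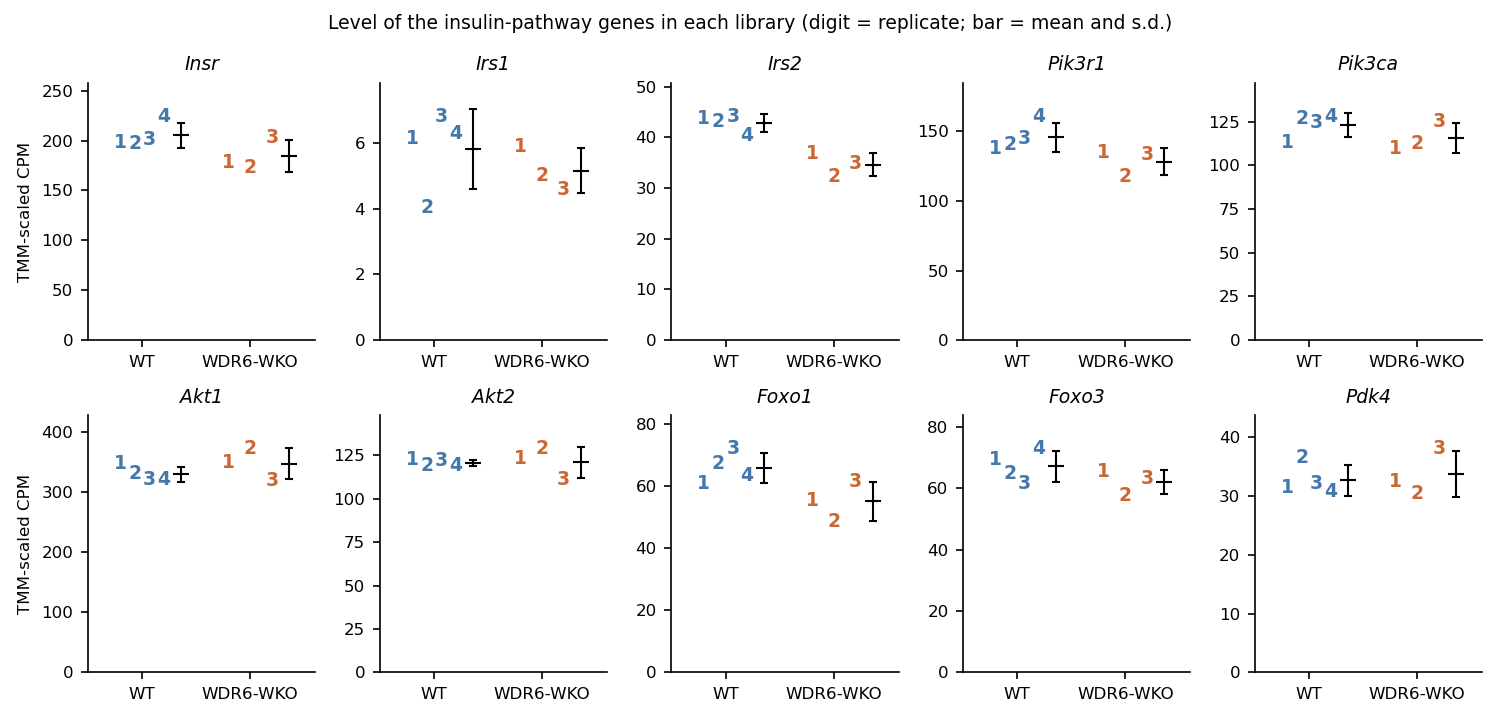
TMM-scaled CPM (vertical axes, each from 0) of the 10 insulin-pathway genes in the 4 WT and 3 WDR6-WKO libraries. Digits are the replicate numbers and bars the mean with s.d. *Irs2* and *Pik3r1* are the genes whose WDR6-WKO libraries all lie below WT, and in *Insr*, *Pik3ca*, *Foxo1* and *Akt1* replicate 3 of WDR6-WKO lies nearer to WT than replicates 1 and 2.

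In all, 2 of the 10 members were lower and 0 higher at an adjusted p under 0.05, where 6.18% of all genes tested were lower and 6.65% higher. The CPM ranges of the genotypes did not overlap in 2 members, *Irs2* and *Pik3r1*, both lower, against 11.7% of all genes lower without overlap and 11.8% higher. The median log2 fold change of the members was -0.13, beside 0.005 over all genes, and 7 of the 10 were below 0 beside 48.8% of all genes. At an unadjusted p under 0.05, 4 members were lower and 0 higher, beside 28.1% of all genes in either direction and 13.6% lower, and DESeq2 and limma-voom also called 0 members higher. None of the members met the thresholds of the study's methods for differentially expressed genes, a log2 fold change of 0.35 or more in size and P under 0.05, which 3.94% of all genes met as lower and 6.42% as higher. With WDR6-WKO replicate 3 left out, 5 members were lower, *Insr*, *Irs2*, *Pik3r1*, *Pik3ca* and *Foxo1*, and *Akt1* was higher. The same omission raised the share of all genes called lower to 14.1% and called higher to 14.5%, or 28.6% in all.

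**Figure D2:**
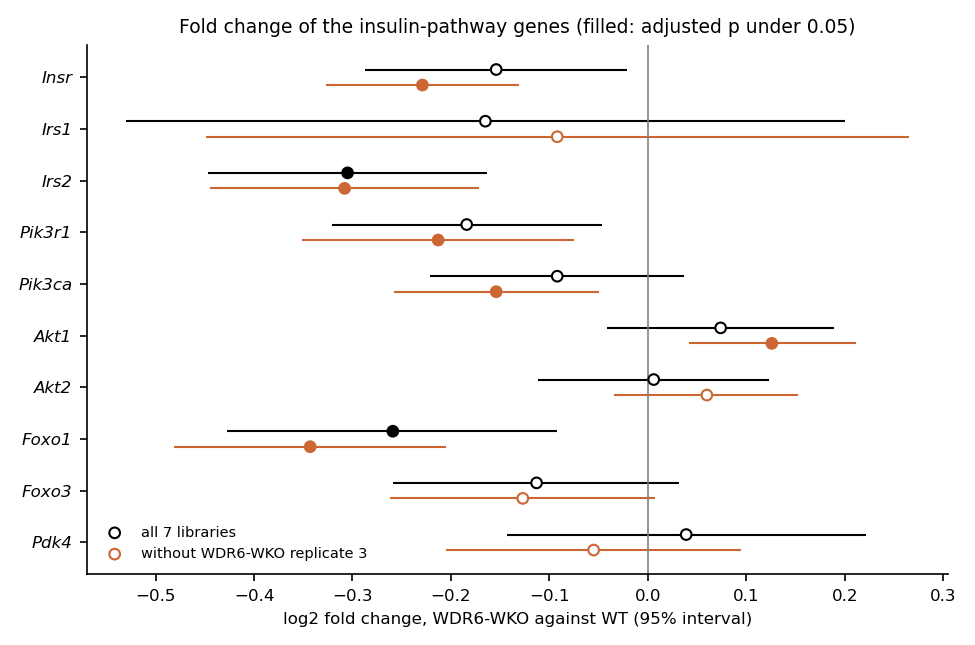
Log2 fold change of each member, WDR6-WKO against WT, with its 95% interval (horizontal axis), from all 7 libraries (black) and without WDR6-WKO replicate 3 (orange). Filled points passed an adjusted p under 0.05: *Irs2* and *Foxo1* with all libraries, and *Insr*, *Irs2*, *Pik3r1*, *Pik3ca*, *Foxo1* and *Akt1* without that replicate.

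To set genes beside each other, levels were expressed per kilobase of exon (RPKM). In WT hepatocytes *Akt1* had the highest level at 80.3 ± 3.04 RPKM (s.d., n = 4) and *Akt2* followed at 16.9 ± 0.243. *Insr* at 14.9 ± 0.922, *Pik3r1* at 14.5 ± 1.02 and *Pik3ca* at 13.6 ± 0.743 came next, and neighbours among these 3 had overlapping ranges. *Pdk4* at 9.31 ± 0.749, *Foxo3* at 8.87 ± 0.662 and *Foxo1* at 7.60 ± 0.562 RPKM formed another run of overlapping neighbours. Below them stood *Irs2* at 6.77 ± 0.272 and, far lower, *Irs1* at 0.636 ± 0.134 RPKM. In WDR6-WKO hepatocytes the order was the same except that *Pik3ca* and *Pik3r1* changed places at 12.7 RPKM each. RPKM depends on the exon length used, and with the longest transcript of each gene *Foxo3* stood above *Pdk4*.

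The members were unequal parts of their families. *Insr* made up 96.3 ± 0.211% of the summed RPKM of the insulin and IGF1 receptors in WT (s.d., n = 4), and *Irs2* 91.4 ± 1.72% of that of the adaptors *Irs1* and *Irs2*. *Akt1* was 82.6% of the sum of *Akt1* and *Akt2*. *Pik3r1* and *Pik3r2*, another regulatory subunit, were closer, at 53.9% and 42.5% of the regulatory subunits, and *Pik3ca* with 44.9% stood beside *Pik3cb*, the catalytic subunit p110β, with 49.0%. Among the FOXO factors *Foxo3* had 41.7%, *Foxo1* 35.7% and *Foxo4* 22.6% in WT, against 41.4%, 32.0% and 26.6% in WDR6-WKO hepatocytes. *Pdk4* had 35.2 ± 1.66% of the summed RPKM of the pyruvate dehydrogenase kinases in WT (s.d., n = 4) and 44.9 ± 4.84% in WDR6-WKO hepatocytes (s.d., n = 3). Its own level was 9.31 and 9.59 RPKM, while that of *Pdk1* was 8.73 and 5.88 and that of *Pdk2* 5.78 and 3.85. These shares are descriptions and were not tested. They also depend on the exon length used. For *Pdk1* and *Pdk2* it was 7779 and 3163 bases, against 5185 and 2246 in the longest coding transcript. For *Pdk4* it was 3511 against 3484, so the order of *Pdk1* and *Pdk4* is not settled by these values.

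**Figure D3:**
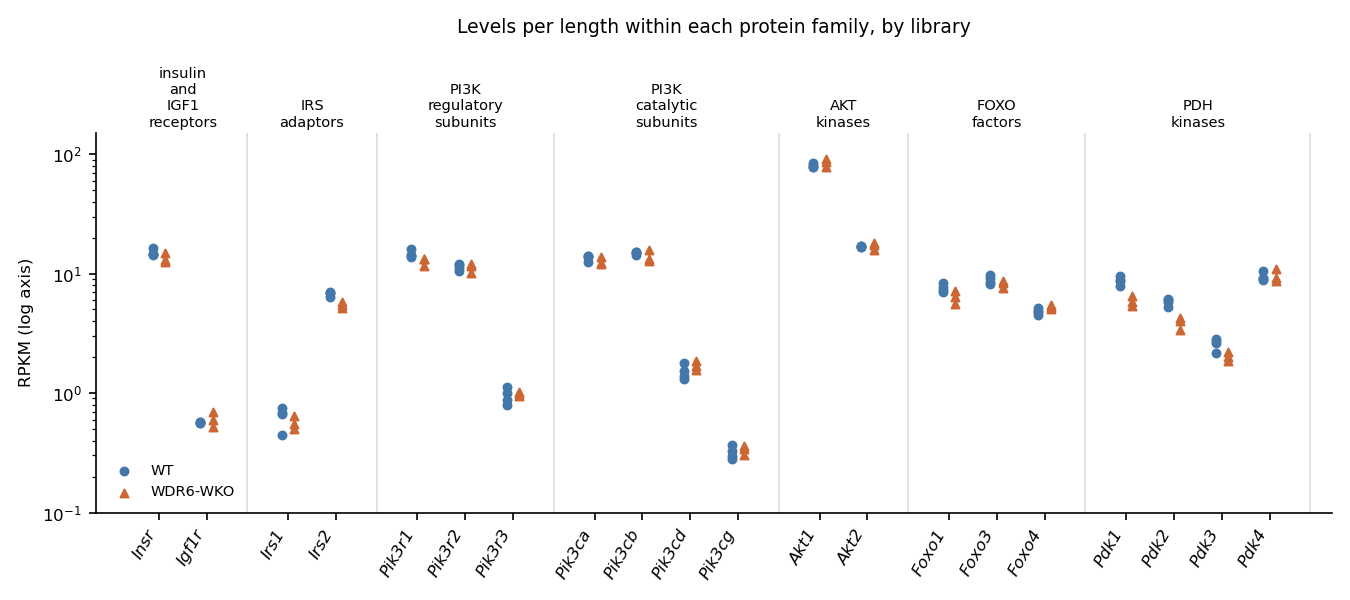
RPKM on a log axis of the members and their family relatives in each library, WT as circles and WDR6-WKO as triangles. *Akt1* stands above *Akt2*, and *Irs2* above *Irs1*, in every library, while *Pdk1* and *Pdk2* lie lower in WDR6-WKO than in WT.

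Whether paralogs shifted against each other was tested as the ratio of their RPKM within a library, for 3 pairs, by an exact two-sided permutation test over 35 splits whose smallest p is 0.0286. The ratio of *Akt1* to *Akt2* was 4.93, 4.83, 4.58 and 4.66 in WT and 4.93, 5.02 and 5.00 in WDR6-WKO libraries. Every WDR6-WKO ratio was at or above the highest of WT, but the exact permutation p was 0.0571 (0.171 after Benjamini-Hochberg adjustment over 3 ratios). The ratio of *Foxo1* to *Foxo3* was 0.863 ± 0.126 (s.d., n = 4) against 0.774 ± 0.0639 (s.d., n = 3), with an exact permutation p of 0.343 (adjusted 0.514). *Irs1* to *Irs2* was 0.0942 ± 0.0203 (s.d., n = 4) against 0.103 ± 0.0105 (s.d., n = 3), with an exact permutation p of 0.686 (adjusted 0.686). After adjustment over 3 ratios, 1 shifted ratio alone could not reach 0.05 with these group sizes, so the tests do not show that the ratios were alike.

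For the members that passed the test, the genes most alike in pattern were sought as the smallest root mean square difference in log2 CPM, each centred on its WT mean, over 7 libraries and 9341 genes of at least 10 CPM. Nearest to *Irs2* were *Txndc11* (difference 0.0402, log2 fold change -0.28), 1190002N15Rik (0.0438, -0.32) and *Cmip* (0.0453, -0.27). Nearest to *Foxo1* were *Rbl1* (0.0371, -0.24), *Kpna3* (0.0430, -0.24) and *Fam208a* (0.0443, -0.24). These likenesses share the same 7 libraries and carry no test.

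The rest of the pathway was read from 8 lists of 153 genes, of which 145 were tested. Of these, 13 were higher, 26 lower and 106 not called, with a median log2 fold change of -0.03. Over all 14779 genes tested, 6.65% were higher and 6.18% lower, with a median of 0.005. These shares are also the background for each list below. Among 10 receptors and adaptors 1 was lower, *Ceacam1*, which promotes insulin clearance in the liver, at 25.5 ± 1.51 CPM in WT (s.d., n = 4) and 17.8 ± 0.682 in WDR6-WKO (s.d., n = 3), or log2 -0.52 (edgeR adjusted p = 0.000420). *Igf1r*, the receptor most like *Insr*, was at 9.50 ± 0.105 CPM in WT and 10.2 ± 1.42 in WDR6-WKO hepatocytes and did not pass (edgeR adjusted p = 0.645).

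Among 18 PI3K subunits and AKT kinases beside the members, 1 was lower and none higher. This was *Pdpk1*, which phosphorylates AKT, at 120 ± 5.81 CPM in WT and 104 ± 10.2 in WDR6-WKO hepatocytes, with a log2 fold change of -0.21 (edgeR adjusted p = 0.0461) and overlapping ranges. Of the fits that left out 1 library, *Pdpk1* passed in the one without WDR6-WKO replicate 3 alone, and the adjusted p reached 0.206 in the others. The relatives of the members among them, *Pik3r2*, *Pik3r3* and *Pik3cb*, had log2 fold changes of -0.02, 0.04 and -0.08 and edgeR adjusted p of 0.871, 0.891 and 0.444. Without WDR6-WKO replicate 3, *Pik3cb* passed at log2 -0.18 (edgeR adjusted p = 0.00629).

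Genes that restrain the pathway moved in both directions, with 3 higher and 4 lower of 27. *Trib3*, a pseudokinase that binds AKT, rose from 24.9 ± 6.10 CPM in WT (s.d., n = 4) to 90.2 ± 17.9 in WDR6-WKO (s.d., n = 3), or by log2 1.85 (edgeR adjusted p = 0.00410). *Grb10*, an adaptor that blocks the insulin receptor, rose from 18.4 ± 1.53 to 28.5 ± 4.06 CPM (log2 0.63, edgeR adjusted p = 0.000661), while its relative *Grb14*, abundant in liver, fell from 66.2 ± 0.798 to 58.1 ± 2.25 (log2 -0.19, edgeR adjusted p = 0.0328). *Pid1*, whose product lowers insulin signalling in fat cells, and the lipid phosphatase *Inpp4b* fell by 0.36 and 0.47 on the log2 scale (edgeR adjusted p = 0.00459 and 0.0429). *Grb14* and *Inpp4b* kept their calls without WDR6-WKO replicate 3 and lost them in each of the other fits that left out 1 library, with edgeR adjusted p up to 0.137 and 0.176. The remaining calls, named after their values were seen, were the kinase *Prkcd* at log2 0.21 and the AKT phosphatase *Phlpp1* at -0.23 (edgeR adjusted p = 0.0450 and 0.0445). Both were just under the threshold, and whether they hold with a library left out was not examined. *Ptpn1*, which dephosphorylates the receptor, was at log2 0.13 and did not pass (edgeR adjusted p = 0.202), while without WDR6-WKO replicate 3 it passed, at log2 0.19 (edgeR adjusted p = 0.00877).

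Of 19 AKT substrates and mTORC1 genes, 2 were higher and 3 lower. *Rheb*, the GTPase that switches on mTORC1, and *Cdkn1a*, a cell cycle inhibitor, rose by log2 0.28 and 0.23 (edgeR adjusted p = 0.00260 and 0.0130). *Pde3b*, the phosphodiesterase through which insulin lowers cyclic AMP, fell from 78.5 ± 1.85 to 62.9 ± 3.23 CPM (log2 -0.32, edgeR adjusted p = 0.00138), and the mTOR inhibitor *Deptor* and the translation repressor *Eif4ebp2* fell by 0.25 and 0.17 on the log2 scale (edgeR adjusted p = 0.0285 and 0.0298). The calls of *Cdkn1a*, *Deptor* and *Eif4ebp2* were lost without WDR6-WKO replicate 1 or 2 or WT replicate 4, that of *Deptor* also without WT replicate 3 and that of *Eif4ebp2* also without WT replicate 1 or 2, with edgeR adjusted p up to 0.0849, 0.116 and 0.0965. Of 20 relatives and partners of FOXO, the pioneer factor *Foxa1* was lower at log2 -0.28 (edgeR adjusted p = 0.00770) and the ubiquitin ligase *Mdm2* higher at 0.16 (edgeR adjusted p = 0.0422). *Mdm2* passed without WDR6-WKO replicate 3 and missed the threshold with each other library left out, with an edgeR adjusted p up to 0.128.

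**Figure D4:**
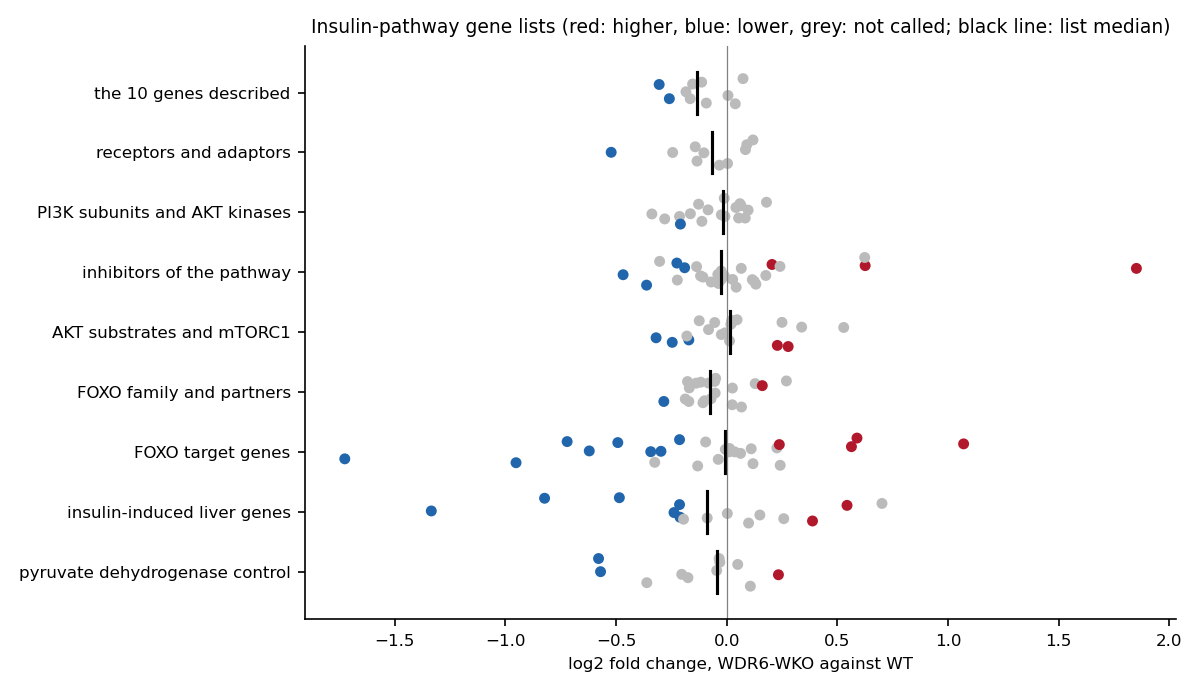
Log2 fold change, WDR6-WKO against WT (horizontal axis), of every gene tested in the 10-gene set and in the 8 other pathway lists, 1 point per gene, spread at random in height. Red points were higher, blue lower and grey not called, and black lines are list medians. The 10 genes lie between -0.31 and 0.07, while *Trib3* reaches 1.85 and *Pck1* -1.73.

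FOXO target genes divided. Of 25 tested, 8 were lower and 4 higher, with a median log2 fold change of -0.01. *Igfbp1*, whose product binds insulin-like growth factors, was at 628, 648, 606 and 618 CPM in WT and 406, 397 and 417 in WDR6-WKO libraries, far apart in all of them, with a log2 fold change of -0.62 (edgeR adjusted p = 3.14e-07). *Pck1*, the gluconeogenic phosphoenolpyruvate carboxykinase, had few reads, 37, 17, 39 and 21 in WT and 15, 8 and 5 in WDR6-WKO libraries, and a log2 fold change of -1.73 (standard error 0.39, edgeR adjusted p = 0.00925). *Erbb3*, a receptor of the EGF receptor family, and *Bnip3*, a mitophagy receptor, fell by 0.95 and 0.72 on the log2 scale (edgeR adjusted p = 3.25e-06 and 1.12e-06). In the other direction *Gadd45a*, a growth arrest gene, rose by log2 1.07 and *Slc7a11*, the cystine transporter, by 0.56 (edgeR adjusted p = 1.56e-05 and 1.47e-05). *Sesn2* and *Ctgf*, named after their values were seen, were the other higher genes at log2 0.59 and 0.24 (edgeR adjusted p = 4.31e-05 and 0.00274). The other lower genes, also named after their values were seen, were *Abca6*, *Sesn3*, *Mttp* and *Cat*. Their log2 fold changes were -0.49, -0.34, -0.30 and -0.21 (edgeR adjusted p = 0.0016, 0.0048, 0.00051 and 0.0063). *G6pc*, the glucose-6-phosphatase gene, was not found in the read-count table and so has no value here.

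Genes that insulin induces in liver were also mixed, with 6 lower and 2 higher of 15. *Srebf1*, which encodes the lipogenic factor SREBP1, fell from 127 ± 4.12 to 109 ± 11.7 CPM (log2 -0.21, edgeR adjusted p = 0.0445), and passed without WDR6-WKO replicate 1 or 3 but not with each other library left out (edgeR adjusted p up to 0.137). The early response gene *Egr1* and the nuclear receptor *Nr0b2* were lower at log2 -0.49 and -0.82 (edgeR adjusted p = 2.90e-05 and 0.00403). *Scd1*, the stearoyl-CoA desaturase, and *Ccnd1*, cyclin D1, were higher at 0.39 and 0.54 (edgeR adjusted p = 0.000143 and 1.79e-05).

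Around *Pdk4*, 2 of 11 other genes of pyruvate dehydrogenase control were lower and 1 higher. Its relatives *Pdk1* and *Pdk2* fell from 67.9 ± 5.16 to 45.7 ± 4.20 CPM and from 18.3 ± 1.19 to 12.2 ± 1.47 CPM, with log2 fold changes of -0.57 and -0.58 (edgeR adjusted p = 0.000118 and 0.00120). *Pdhb*, the β subunit of pyruvate dehydrogenase E1, rose by log2 0.23 (edgeR adjusted p = 0.00769). The 95% interval of *Pdk4*, from -0.14 to 0.22, did not reach the values of *Pdk1* and *Pdk2*.

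**Figure D5:**
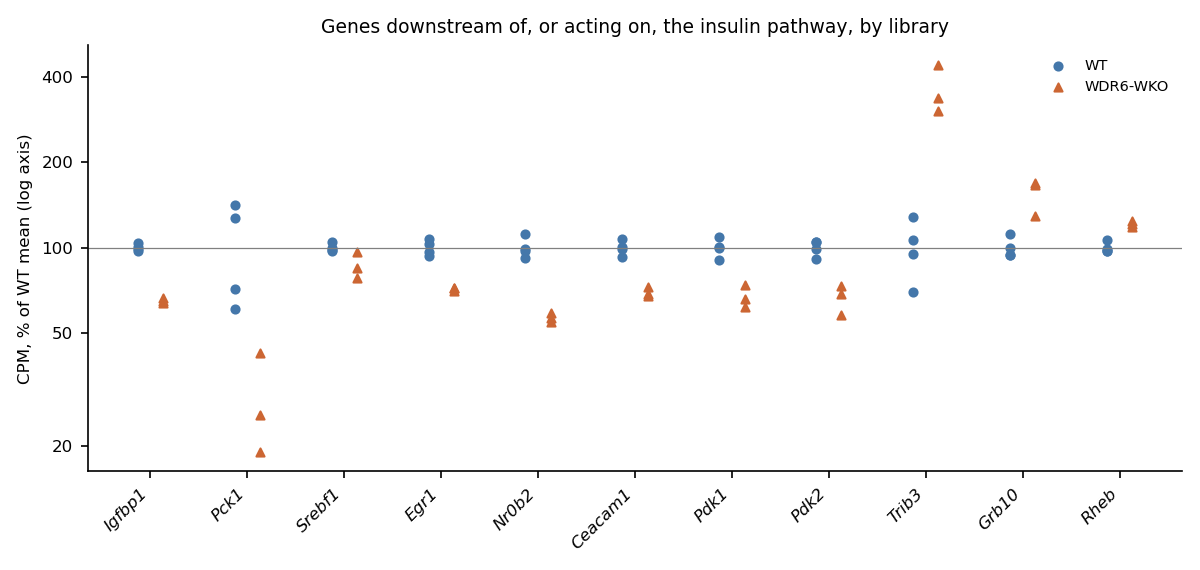
CPM in each library as a percent of the gene's WT mean, on a log axis, WT as circles and WDR6-WKO as triangles. The 11 genes, downstream of or acting on the pathway, were picked by hand and do not represent their lists. Among genes left out, the FOXO targets *Gadd45a* and *Slc7a11* and the insulin-induced *Scd1* and *Ccnd1* were higher. The FOXO targets *Erbb3* and *Bnip3*, also left out, were lower. *Igfbp1*, *Pck1*, *Srebf1*, *Egr1*, *Nr0b2*, *Ceacam1*, *Pdk1* and *Pdk2* lie below WT in every WDR6-WKO library, and *Trib3*, *Grb10* and *Rheb* above it.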

How the data were processed

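Libraries were made with the NEBNext Ultra RNA kit and sequenced on an Illumina HiSeq. The authors aligned the reads to the mouse genome (mm10, GRCm38) with Bowtie2 2.2.3 and deposited raw whole-number read counts for each gene symbol. The counting tool, its annotation and its strand setting are not given in the sources used here. No row of the table sums to fewer than 50 reads. Samples were grouped by the genotype in their labels, and the series describes them as independent experiments.

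From the counts, levels and tests were obtained in R 4.3.3 with edgeR 4.0.16 (filterByExpr, TMM, robust quasi-likelihood test without a block), and p-values were adjusted by Benjamini-Hochberg over 14779 genes. Intervals of fold changes are not adjusted. The biological coefficient of variation was 7.40%. Exon lengths, overlaps and coordinates came from GENCODE M21. Of these steps, the edgeR test alone was tried on simulated counts. Alternatives were DESeq2 1.42.0, limma-voom (limma 3.58.1), other scalings and filters, a replicate block, each replicate left out, and the study's thresholds.

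The members, the lists and the rule for named genes were chosen with earlier results of these data known. Beside the members and *Wdr6*, the rule named up to 5 called genes of each list with the smallest p, and 15 genes of known role whatever their values. Some genes that the rule names are not reported here.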

Additional observations from a re-analysis of the deposited data

Results flagged for a closer look

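In the WT group, *Insr* in replicate 4 stood apart from the others. It was counted at 224 CPM against 197 to 201 in replicates 1 to 3, a gap of 0.859 of the group's range, above Dixon's critical value for 4 samples. Chance flags about 1 in 20 groups, and 1 of 49 groups examined was flagged. Leaving out each library in turn gave *Insr* log2 fold changes between -0.23 and -0.11.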

How the results depend on the processing

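Of the 10 members, 2 were lower with all libraries, 1 with library sizes alone as the scaling, 0 with the study's thresholds and 1 to 5 with each replicate left out, the highest without WDR6-WKO replicate 3; 0 were higher, and 0 to 1 with each replicate left out. Of the other pathway genes, 26 were lower, 14 with the study's thresholds and 17 to 46 with each replicate left out (17 without WDR6-WKO replicate 2, 46 without replicate 3), and 13 were higher, 10 to 25 with each replicate left out. Some values near 0 turned sign. With each replicate left out, *Akt2* lay between -0.042 and 0.06, *Pdk4* between -0.055 and 0.105, *Igf1r* between -0.012 and 0.184, *Pik3r2* between -0.073 and 0.044 and *Pik3r3* between -0.03 and 0.133. *Akt2* was at -0.002 with the replicate block and below 0 without WDR6-WKO replicate 1 or 2 or WT replicate 2. *Pdk4* and *Igf1r* were below 0 without WDR6-WKO replicate 3 and *Pik3r3* without WT replicate 2, and *Pik3r2* was above 0 without WDR6-WKO replicate 3 or WT replicate 1 and at 0.003 with library sizes alone. The cause was not tested. Over all genes, 983 were higher and 914 lower, against 1212 and 696 with library sizes alone, which moved the median log2 fold change of all genes from 0.005 to 0.032. Without WDR6-WKO replicate 3 the calls rose from 1897 to 4233.

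Libraries with the same replicate number correlated at 0.0311 to 0.0689 in their deviations, so the numbers were not taken to pair them. With the replicate number as a block, 1762 genes passed in place of 1897, 2 members were again lower, 13 other pathway genes were higher and 22 lower, and *Trib3* (edgeR adjusted p = 0.0696), *Grb14*, *Inpp4b*, *Deptor*, *Eif4ebp2* and *Mdm2* no longer passed; not every library correlated best with the one of its own number. The ratios of paralogs moved by less than 1 s.d. in every alternative. *Irs1* had 77 to 142 reads per library and *Pck1* 5 to 39, so counting error adds to their spread.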
